A study of Mus musculus with 64 samples.

Results

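The homeostatic microglia genes examined here were *P2ry12*, *P2ry13*, *Tmem119*, *Cx3cr1*, *Csf1r*, *Siglech*, *Sall1*, *Gpr34* and *Selplg*. They were found by matching the Ensembl identifiers of the deposited expression table to these symbols in the GENCODE vM21 annotation, and all 9 were among its 18432 genes. Each level below is a normalized count, that is, an estimated read count per gene divided by a library size factor. The libraries came from frontal cortex and hippocampus of C57BL/6N mice that carried 1 copy of the *Cyfip2* R87C allele (*Cyfip2* +/R87C, KI), a model of West syndrome, and of wild-type (WT) littermates. Both tissues were taken from each mouse at postnatal week (PWK) 1, 7, 14 and 28, with 4 mice in each genotype and age group, which gave 16 groups and 64 libraries. The labels do not say whether the same replicate number in both tissues marks the same mouse. The ages were chosen by the study to follow the mice from early spasms, through a period without seizures, to adult seizures with early death, so the KI mice sampled at PWK 14 and 28 were animals that had survived to those ages.

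Microglia are the resident macrophages of the brain. Their survival depends on signaling through the receptor CSF1R, and TGF-beta keeps them in the surveying state called homeostatic. In that state they express purinergic and chemokine receptors with which they sense nucleotides and neuronal fractalkine, and several of these genes are turned down when microglia become activated by injury or disease. In RNA from whole tissue, fewer microglia and less RNA per microglial cell cannot be told apart. Nor can RNA of the same gene from other cells be separated from that of microglia. Both limits hold for every level below, of the members and of the other lists.

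The members fall into receptors, other surface proteins and a transcription factor. Of the receptors of protein ligands, *Csf1r* (ENSMUSG00000024621, GRCm38 chr18:61100598-61132149, plus strand) encodes the receptor of CSF1 and IL-34, and *Cx3cr1* (ENSMUSG00000052336, chr9:119901616-120069879, minus strand) encodes the fractalkine receptor. Both overlap other annotated genes, so a part of their reads could in principle be shared with those genes. Some protein-coding genes that overlap *Cx3cr1* lie on its own strand, while the protein-coding gene that overlaps *Csf1r* lies on the opposite strand.

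*P2ry12* (ENSMUSG00000036353, chr3:59216272-59262871, minus strand) and *P2ry13* (ENSMUSG00000036362, chr3:59207892-59210882, minus strand) encode ADP receptors and lie 5389 bp apart, both inside *Med12l*, which runs on the opposite strand. *Gpr34* (ENSMUSG00000040229, chrX:13632089-13640858, plus strand) encodes a lysophosphatidylserine receptor and lies inside *Cask*, again on the opposite strand. *Tmem119* (ENSMUSG00000054675, chr5:113793729-113800516, minus strand) encodes a membrane protein used to tell microglia from other macrophages, and *Selplg* (ENSMUSG00000048163, chr5:113818536-113832644, minus strand), 18019 bp away, encodes the P-selectin ligand PSGL-1. *Siglech* (ENSMUSG00000051504, chr7:55768178-55778925, plus strand) encodes a sialic acid-binding lectin. *Sall1* (ENSMUSG00000031665, chr8:89027235-89044162, minus strand) encodes a zinc finger transcription factor that maintains microglial identity.

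The sequence just before the annotated start is shown for some of these genes because 8 of the 9 moved together with age, as described below. RefSeq promoters (GRCm38.p6) were present for 5 members, which had 7 annotated starts between them. The letters AGGAAGT, the core recognised by the myeloid factor PU.1, were searched on both strands from 250 bases before to 50 bases after each start. They were found in 2 of the 7 windows and in 9.35% of all 32851 promoters of that length. The palindromic SMAD motif GTCTAGAC was found in 0 of 7 windows and in 0.213% of all promoters, and the MEF2 motif TAAAAATA in 0 of 7 and 2.72%. The matches were in *P2ry12* and in 1 of 3 *Sall1* starts. The stretch of *P2ry12* that held the motif (chr3:59263021-59263047, minus strand, motif starting 52 bases before the start) is given with the motif in capitals, beside the windows of its neighbour *P2ry13* (chr3:59210883-59211132, minus strand) and of *Siglech* (chr7:55767934-55768177, plus strand), which held none of the 3 motifs.
P2ry12: gctaacaagaAGGAAGTtccccagtga
P2ry13: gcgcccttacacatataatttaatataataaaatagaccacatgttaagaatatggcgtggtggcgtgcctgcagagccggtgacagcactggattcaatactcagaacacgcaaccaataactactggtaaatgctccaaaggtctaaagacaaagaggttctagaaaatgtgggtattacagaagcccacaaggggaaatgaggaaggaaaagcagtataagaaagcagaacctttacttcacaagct
Siglech: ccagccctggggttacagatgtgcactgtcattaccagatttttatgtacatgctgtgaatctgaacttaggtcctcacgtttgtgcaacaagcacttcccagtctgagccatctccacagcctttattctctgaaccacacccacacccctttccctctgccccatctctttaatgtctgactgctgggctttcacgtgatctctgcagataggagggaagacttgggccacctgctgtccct
A match in these windows is a description of the letters and not evidence of binding.

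All 9 genes were detected in every library, with means over the 64 libraries from 354 for *Gpr34* to 3218 for *Csf1r*. Per kilobase of exon, the WT cortex at PWK 28 held 683 ± 41.5 (SD, n = 4) normalized counts of *Csf1r* and 499.9 ± 54.4 of *P2ry12*. *Tmem119* and *Cx3cr1* followed at 309.8 ± 23.1 and 306 ± 14.2 per kilobase, a difference smaller than the spread of either. *Siglech* was the lowest, at 129 ± 15.3 per kilobase. Tissue identity was as labelled, since the summed level of 3 hippocampus markers was 1892 to 4526 in cortex libraries and 13927 to 22420 in hippocampus libraries. The summed choroid plexus markers, in contrast, ranged from 249 to 123586 among hippocampus libraries and reached 21354 in 1 cortex library (WT, PWK 28, replicate 2). The targeted gene *Cyfip2* had group means from 15206 to 41799 and does not by itself check the labels, since the allele carries a point mutation. Its KI and WT libraries did not overlap in cortex at PWK 7 (KI higher), 14 and 28 (KI lower). They overlapped in cortex at PWK 1 and in hippocampus at every age. At PWK 14 the cortex means were 33510 ± 4130 in KI and 41799 ± 1928 in WT. Values in 1 library, KI hippocampus PWK 14 replicate 1, stood apart from the rest of its group and are given with and without it.

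**Figure D1:**
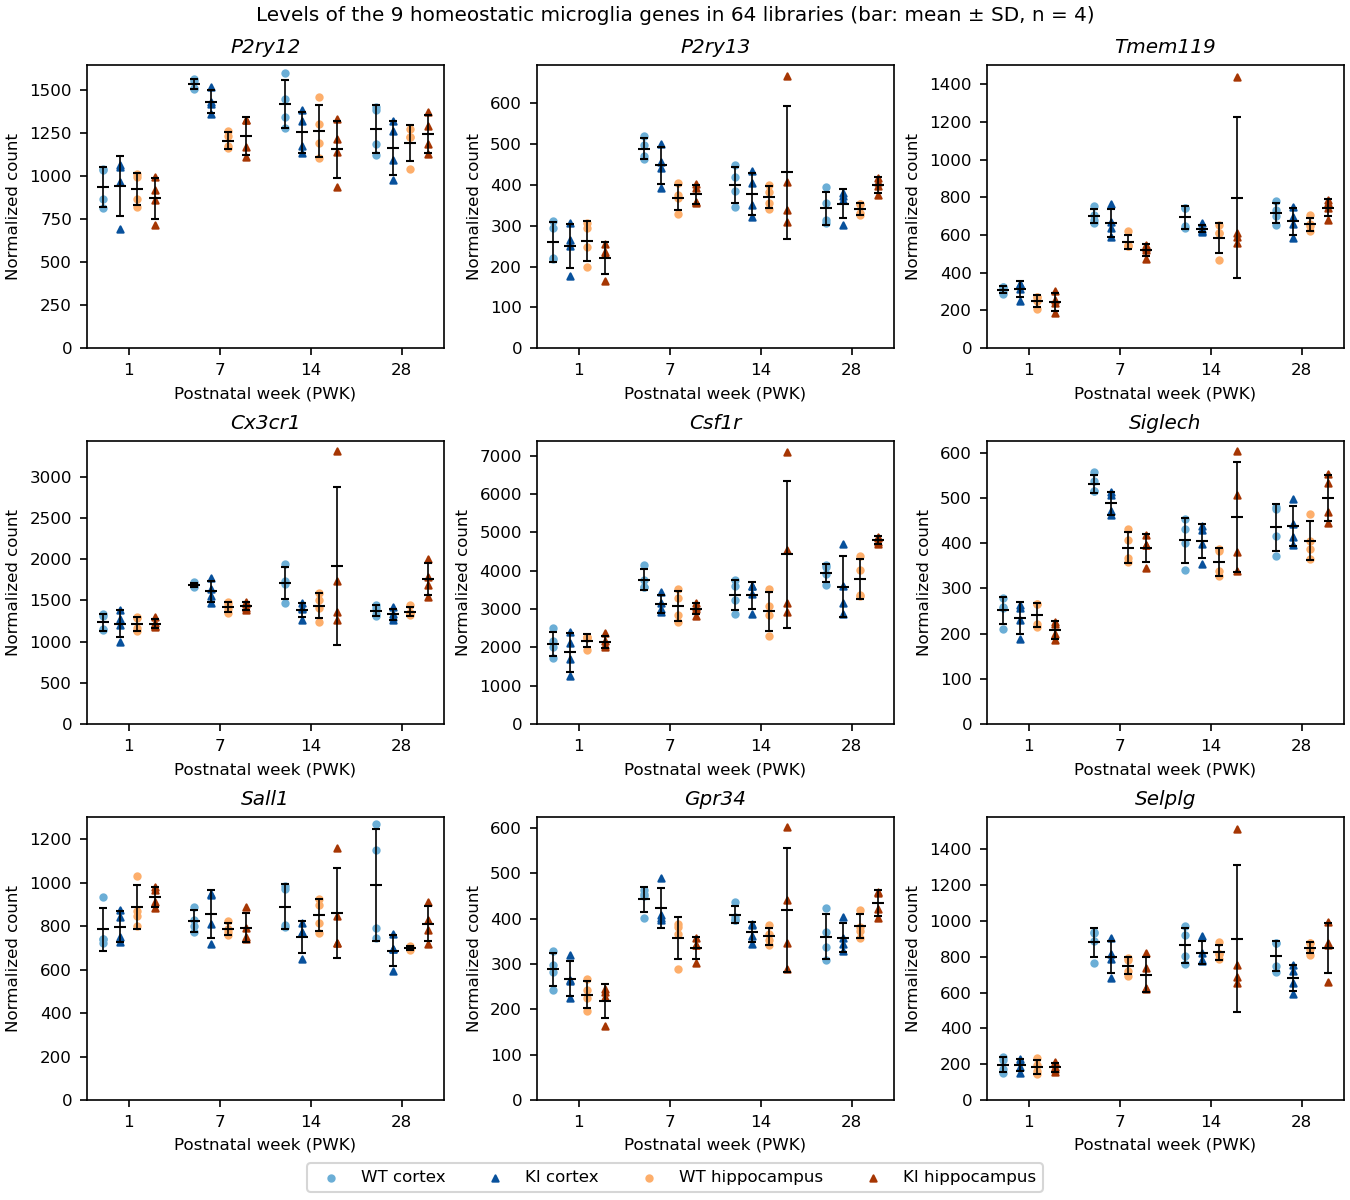
Normalized count of each member gene (y axis, linear from 0) by postnatal week (x axis), with 1 point per library; colours separate the regions, circles are WT and triangles KI, and black bars give the mean and SD of 4 libraries. Levels of 8 genes were lower at PWK 1 than at PWK 7 in both WT regions, *Sall1* showed no such step, and 1 KI hippocampus library at PWK 14 lay far above the others for most genes.

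Between PWK 1 and PWK 7, 8 of the 9 genes rose in WT cortex and the same 8 rose in WT hippocampus, with *Sall1* the exception in both. Among all genes tested, 65.3% were called in cortex and 32.5% were called higher, and in hippocampus 61.3% were called and 30.9% were called higher, so broad change was the rule over this interval. The members' median log2 difference was 0.85 for cortex (hippocampus 0.51), beside 0.01 for all genes in each region.

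*Selplg* changed most. Its 4 WT cortex libraries held 224, 174, 238 and 152 normalized counts at PWK 1 and 765, 888, 931 and 937 at PWK 7. No library of the younger age reached the older ones, and the difference was 2.17 on the log2 scale (SE 0.13, limma adjusted p = 4.4e-08), or 4.51-fold. In hippocampus the step was 2.04 (SE 0.13, limma adjusted p = 1.4e-07). *Tmem119*, its neighbour on chromosome 5, held 327, 289, 327 and 297 in cortex at PWK 1 and 678, 751, 708 and 665 at PWK 7. That gene rose by 1.17 (cortex) and 1.18 (hippocampus) on the log2 scale (SE 0.07 and 0.10), with no overlap between ages in either region.

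The receptors rose less. In cortex the log2 differences were 0.72 for *P2ry12*, 0.92 for *P2ry13*, 0.46 for *Cx3cr1*, 0.85 for *Csf1r* and 0.62 for *Gpr34*. In the same order, the hippocampal differences were 0.39, 0.51, 0.22, 0.50 and 0.61. *Siglech* rose by 1.08 in cortex and 0.69 in hippocampus. Each of these passed the test in both regions without any 1 library; the exception among all settings was *Cx3cr1* in hippocampus, whose call was lost in a fit of all 64 libraries (adjusted p = 0.136). *Sall1* differed by 0.07 in cortex (SE 0.09, adjusted p = 0.463) and by -0.17 in hippocampus (SE 0.08, adjusted p = 0.073), and its highest WT cortex library at PWK 1 was replicate 1 at 935, against 723 to 741 in the other 3. Without that library the cortex value was 0.16 (adjusted p = 0.043), and without WT hippocampus PWK 1 replicate 4 the hippocampal value was -0.22 (adjusted p = 0.035).

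The ligands of these receptors were higher at PWK 7 as well. *Cx3cl1*, the fractalkine bound by CX3CR1, rose by 0.58 in WT cortex and 0.46 in WT hippocampus on the log2 scale. *Il34*, a ligand of CSF1R, rose by 0.59 in cortex (0.39 in hippocampus), and *Csf1*, its other ligand, by 0.53 in cortex (0.83 in hippocampus). *Entpd1*, an ectonucleotidase that removes extracellular ATP and ADP, rose in cortex (0.38) and had a value of 0.05 in hippocampus. Of 15 other homeostatic microglia genes, 8 rose and 1 fell in cortex, and 8 rose and 2 fell in hippocampus. Of the 7 microglial transcription factors, 3 rose in cortex, and in hippocampus 4 rose and 2 fell. In the TGF-beta pathway 2 of 9 genes rose and 3 fell in cortex, and 3 rose and 5 fell in hippocampus. Of 13 activated microglia genes, 4 rose and 3 fell in cortex, and 5 rose and 2 fell in hippocampus. Among all genes, 32.5% were called higher over this step in cortex and 30.9% in hippocampus. Border macrophage markers summed to 1633 to 2135 at PWK 1 and 1091 to 1486 at PWK 7 in WT cortex, and to 2070 to 2712 and 959 to 1350 in WT hippocampus. Oligodendrocyte markers, which appear with myelination, summed to 6140 to 14019 in WT cortex at PWK 1 and to 116596 to 147094 at PWK 7. The part of these shifts in cell makeup in the members' rise was not tested.

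After PWK 7 the WT levels changed little. From PWK 7 to 14, 1 of 9 members was called in cortex (5.32% of all genes) and 0 in hippocampus (1.99%). *Siglech* fell in cortex, from 516, 557, 515 and 537 at PWK 7 to 400, 340, 431 and 453 at PWK 14. The groups did not overlap, and the log2 difference was -0.39 (SE 0.09, limma adjusted p = 0.024). That call was lost without WT cortex PWK 7 replicate 2, 3 or 4 or PWK 14 replicate 1 (adjusted p from 0.055 to 0.075). In the same step *P2ry13* had a value of -0.29 (adjusted p = 0.075), which was called without WT cortex PWK 14 replicate 3 (adjusted p = 0.048).

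From PWK 14 to 28, 1 member was called in each region, beside 12.0% of all genes in cortex and 8.11% in hippocampus. In cortex *Cx3cr1* fell from 1702, 1468, 1730 and 1944 to 1449, 1412, 1335 and 1313. These groups were separate, with a log2 difference of -0.31 (SE 0.08, limma adjusted p = 0.025). The call was lost without WT cortex PWK 14 replicate 1, 3 or 4 or PWK 28 replicate 3 or 4 (adjusted p from 0.053 to 0.071). In hippocampus *Sall1* fell from 924, 813, 770 and 897 to 702, 696, 709 and 688. The older libraries lay close together and below all younger ones, and the difference was -0.28 (SE 0.06, limma adjusted p = 0.027). It did not pass without PWK 14 replicate 1 or 4 or without any 1 of the PWK 28 libraries (adjusted p from 0.051 to 0.077). *Csf1r* had values of 0.23 in cortex (adjusted p = 0.077, called at 0.049 without WT cortex PWK 14 replicate 3) and 0.37 in hippocampus (adjusted p = 0.096).

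At PWK 7, 8 of the 9 genes were lower in hippocampus than in cortex, all but *Sall1*, and the members' median log2 difference was -0.32 beside 0.01 for all genes. Of all genes tested, 40.8% were called between the regions and 20.4% were called lower in hippocampus. *Siglech* showed the largest difference, with 516, 557, 515 and 537 in cortex and 366, 430, 406 and 358 in hippocampus. All cortex libraries were above all hippocampus libraries, at -0.45 on the log2 scale (SE 0.08, limma adjusted p = 5.9e-04). *P2ry12* held 1561, 1505, 1548 and 1512 in cortex and 1229, 1259, 1171 and 1161 in hippocampus. Its groups were equally separate (log2 difference -0.35, SE 0.05, limma adjusted p = 8.2e-05). The other values were -0.41 for *P2ry13*, -0.32 for *Tmem119* and for *Gpr34*, -0.29 for *Csf1r*, -0.25 for *Cx3cr1* and -0.23 for *Selplg*. *Sall1* had a value of -0.06 (adjusted p = 0.418).

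Some of these calls were close to the threshold. *Csf1r* lost its call without WT cortex PWK 7 replicate 2 (adjusted p = 0.051), *Gpr34* without cortex replicate 1, 2 or 4 (from 0.058 to 0.066), and *Selplg* without cortex replicate 2, 3 or 4 or hippocampus replicate 1 or 4 (from 0.065 to 0.086). In a fit of all 64 libraries, 4 of the 8 calls remained. The ligands did not share a direction. *Il34* and *Cx3cl1* were lower in hippocampus, by -0.74 and -0.39 on the log2 scale, and *Csf1* was higher by 0.44. In the same libraries the choroid plexus markers summed to 161 to 1084 in cortex and 1354 to 95574 in hippocampus, and the part of that tissue in the differences was not tested.

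**Figure D2:**
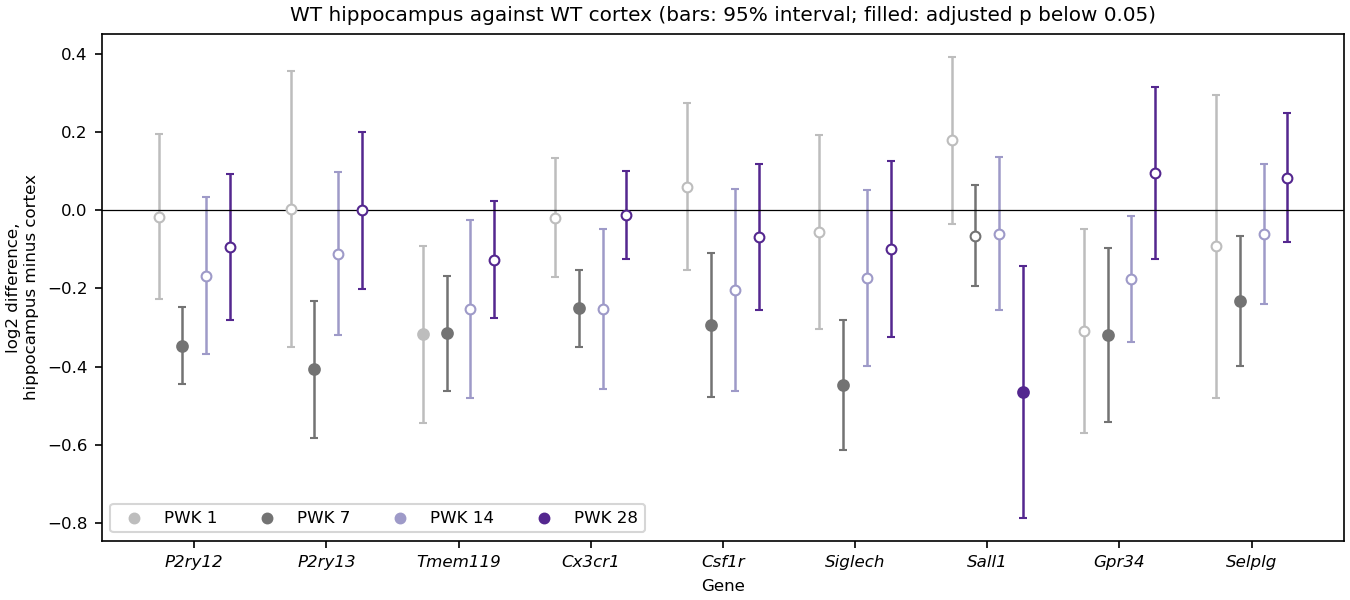
Log2 difference of WT hippocampus minus WT cortex (y axis) for each member gene (x axis) at 4 ages (shades), with 95% intervals from limma; filled points had an adjusted p below 0.05. At PWK 7, 8 points are filled and below 0, while 1, 0 and 1 are filled at PWK 1, 14 and 28.

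The regions were closer at the other ages, although 34.7%, 34.6% and 37.8% of all genes were called between them at PWK 1, 14 and 28. At PWK 1 the call was *Tmem119*, with 327, 289, 327 and 297 in cortex and 273, 251, 270 and 206 in hippocampus (log2 difference -0.32, SE 0.10, limma adjusted p = 0.033). It was lost without WT cortex PWK 1 replicate 1, 3 or 4 or hippocampus replicate 2 or 4 (adjusted p from 0.053 to 0.083). At this age cortex and hippocampus libraries of the same replicate number deviated together, and with the replicate block 2 members were called, *Tmem119* (adjusted p = 0.023) and *Gpr34* (log2 difference -0.31, adjusted p = 0.042). *Gpr34* also passed without the block when WT cortex replicate 2 or hippocampus replicate 1 was left out (0.031 and 0.042). *Sall1* at PWK 1 had a value of 0.18 (adjusted p = 0.184), or 0.27 without WT cortex replicate 1 (adjusted p = 0.024). At PWK 14 no member was called, and 9 of 9 values were below 0, from -0.25 to -0.06, with a median of -0.17 beside 0.01 for all genes. *Cx3cr1* was nearest to a call there (adjusted p = 0.055) and passed without WT cortex PWK 14 replicate 2 or hippocampus replicate 4 (0.018 and 0.036). At PWK 28 the call was *Sall1*, with 792, 747, 1151 and 1268 in cortex against 702, 696, 709 and 688 in hippocampus. The groups were separate, but WT cortex replicates 3 and 4 stood well above replicates 1 and 2. The log2 difference was -0.46 (SE 0.15, limma adjusted p = 0.027), and it was lost without cortex replicate 3 or 4 or hippocampus replicate 1, 2 or 4 (adjusted p from 0.054 to 0.082).

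At PWK 1 and PWK 7 no member was called between genotypes in either region. In cortex 0.00546% of all genes were called at PWK 1 and 0.00545% at PWK 7, and the hippocampal shares were 0.0109% and 0.0218%. Differences of the members lay between -0.27 and 0.08 on the log2 scale. The largest was *Csf1r* in cortex at PWK 7, with 2993, 2916, 3450 and 3169 in KI and 3565, 4156, 3750 and 3588 in WT. All KI libraries were below all WT libraries, yet the adjusted p was 0.256.

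In cortex no member was called at the adult ages either, where 5.18% of all genes were called at PWK 14 and 22.2% at PWK 28. At PWK 14, 9 of 9 differences were below 0, from -0.30 to -0.002, with a median of -0.13, beside -0.0018 for all genes. The members varied together across libraries, so counts of signs here and elsewhere are not counts of separate observations. *Cx3cr1* was the furthest, with 1265, 1405, 1467 and 1401 in KI and 1702, 1468, 1730 and 1944 in WT. The log2 difference was -0.30 (SE 0.08, 95% interval -0.49 to -0.11, limma adjusted p = 0.069), and it was called without WT cortex PWK 14 replicate 2 (adjusted p = 0.042). At PWK 28, 7 of 9 differences were below 0, with a median of -0.10, beside -0.0034 for all genes. *Sall1* held 592, 764, 694 and 697 in KI and 792, 747, 1151 and 1268 in WT. The groups overlapped and the interval was wide, at -0.49 (SE 0.16, 95% interval -0.86 to -0.13, limma adjusted p = 0.055). The call was made without WT cortex PWK 28 replicate 1 or 2 or KI replicate 2 (adjusted p from 0.029 to 0.048), and with total-sum scaling (0.041) or a fit of all 64 libraries (0.0010). *Csf1r* at -0.16 (adjusted p = 0.399) was called only without KI cortex PWK 28 replicate 4, the highest KI library at 4695, where the value became -0.30 (adjusted p = 0.036).

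**Figure D3:**
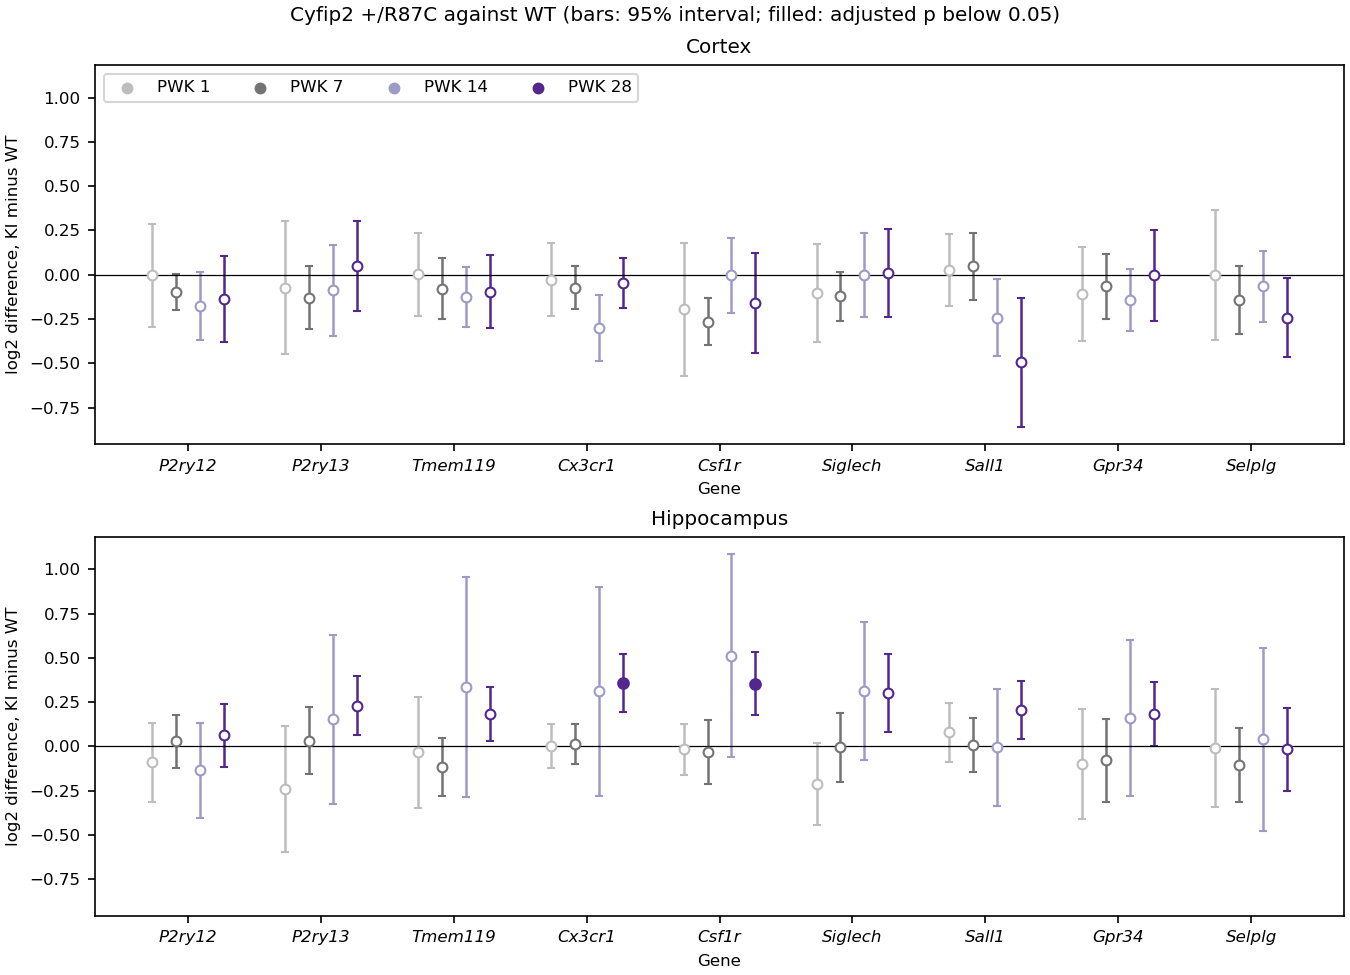
Log2 difference of KI minus WT (y axis) for each member gene (x axis) at 4 ages (shades) in cortex (top) and hippocampus (bottom), with 95% intervals from limma; filled points had an adjusted p below 0.05. The 2 filled points are *Cx3cr1* and *Csf1r* in hippocampus at PWK 28, and intervals are widest in hippocampus at PWK 14.

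In hippocampus at PWK 14 no member was called, while 15.6% of all genes were. Here 1 KI library stood above the others for most members. *Cx3cr1* was at 3314 in replicate 1 and at 1362, 1257 and 1741 in the other KI libraries, against 1509, 1412, 1234 and 1587 in WT. *Tmem119* was at 1437 against 557, 611 and 588, and *Csf1r* at 7089 against 2930, 3155 and 4532. The ratio of this library to the median of the other 3 was 2.44 for *Tmem119*, 2.43 for *Cx3cr1*, 2.25 for *Csf1r*, 2.2 for *Selplg*, 1.98 for *P2ry13*, 1.74 for *Gpr34*, 1.61 for *Sall1* and 1.59 for *Siglech*. *P2ry12* had the lowest ratio, 1.17, with 1329 in this library and 1139, 934 and 1211 in the others. The same library held 24160 summed counts of activated microglia genes, against 6342 to 9704 in the other KI and 5516 to 6021 in the WT libraries. Its astrocyte markers summed to 199576 (88467 to 99949 in the other KI libraries, 54454 to 61183 in WT), and its border macrophage markers to 1915 (1260 to 1353, and 1048 to 1185 in WT). It also had the lowest choroid plexus sum of its group, 1782. The part of these in the members' values was not tested.

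With that library the members' differences ran from -0.13 for *P2ry12* to 0.51 for *Csf1r* (SE 0.26, adjusted p = 0.203), with a median of 0.16. Without it they ran from -0.24 for *Selplg* (adjusted p = 0.060) to 0.26 for *Csf1r* (adjusted p = 0.331), with a median of -0.03, and again none was called. In a fit of all 64 libraries *Csf1r* (adjusted p = 0.010) and *Siglech* (adjusted p = 0.038) passed with it. The 95% intervals with that library were wide for some members, for example -0.28 to 0.96 for *Tmem119*, and narrower for *P2ry12* (-0.40 to 0.13).

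At PWK 28 the hippocampus was the only setting of the 8 genotype comparisons in which members were called. *Cx3cr1* and *Csf1r* were higher in KI, beside 15.8% of all genes called and 8.92% called higher. *Cx3cr1* held 1688, 1786, 1543 and 2003 in KI and 1320, 1447, 1341 and 1352 in WT. Every KI library was above every WT library, a difference of 0.36 on the log2 scale (SE 0.08, 95% interval 0.19 to 0.52, limma adjusted p = 0.0089), or 1.28-fold. *Csf1r* held 4891, 4867, 4745 and 4698 in KI and 4393, 3345, 4018 and 3357 in WT. These groups were separate too, and the KI libraries were much closer to each other than the WT libraries were (log2 difference 0.36, SE 0.08, 95% interval 0.18 to 0.53, limma adjusted p = 0.013). Both calls held without any 1 library (adjusted p up to 0.032 and 0.040), and both were lost in a fit of all 64 libraries (0.050 and 0.122).

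The other members gave 6 values above 0 and 1 below, and the median of the 9 was 0.21, beside 0.004 for all genes. *Siglech* differed by 0.30 (adjusted p = 0.064) and passed without WT hippocampus PWK 28 replicate 2 or KI replicate 3 (0.039 and 0.049). *P2ry13* differed by 0.23 (adjusted p = 0.064) and *Sall1* by 0.21 (adjusted p = 0.084, called at 0.033 without KI replicate 3), and the groups of both were separate. *Tmem119* and *Gpr34* each differed by 0.18 (adjusted p = 0.0996 and 0.163). *P2ry12* was at 0.06 (95% interval -0.11 to 0.24) and *Selplg* at -0.02 (95% interval -0.25 to 0.22), so for these 2 genes a rise as large as the estimate for *Cx3cr1* lay outside the interval. The interval of *Cx3cr1* itself (0.19 to 0.52) overlapped both, and differences between genes were not tested.

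**Figure D4:**
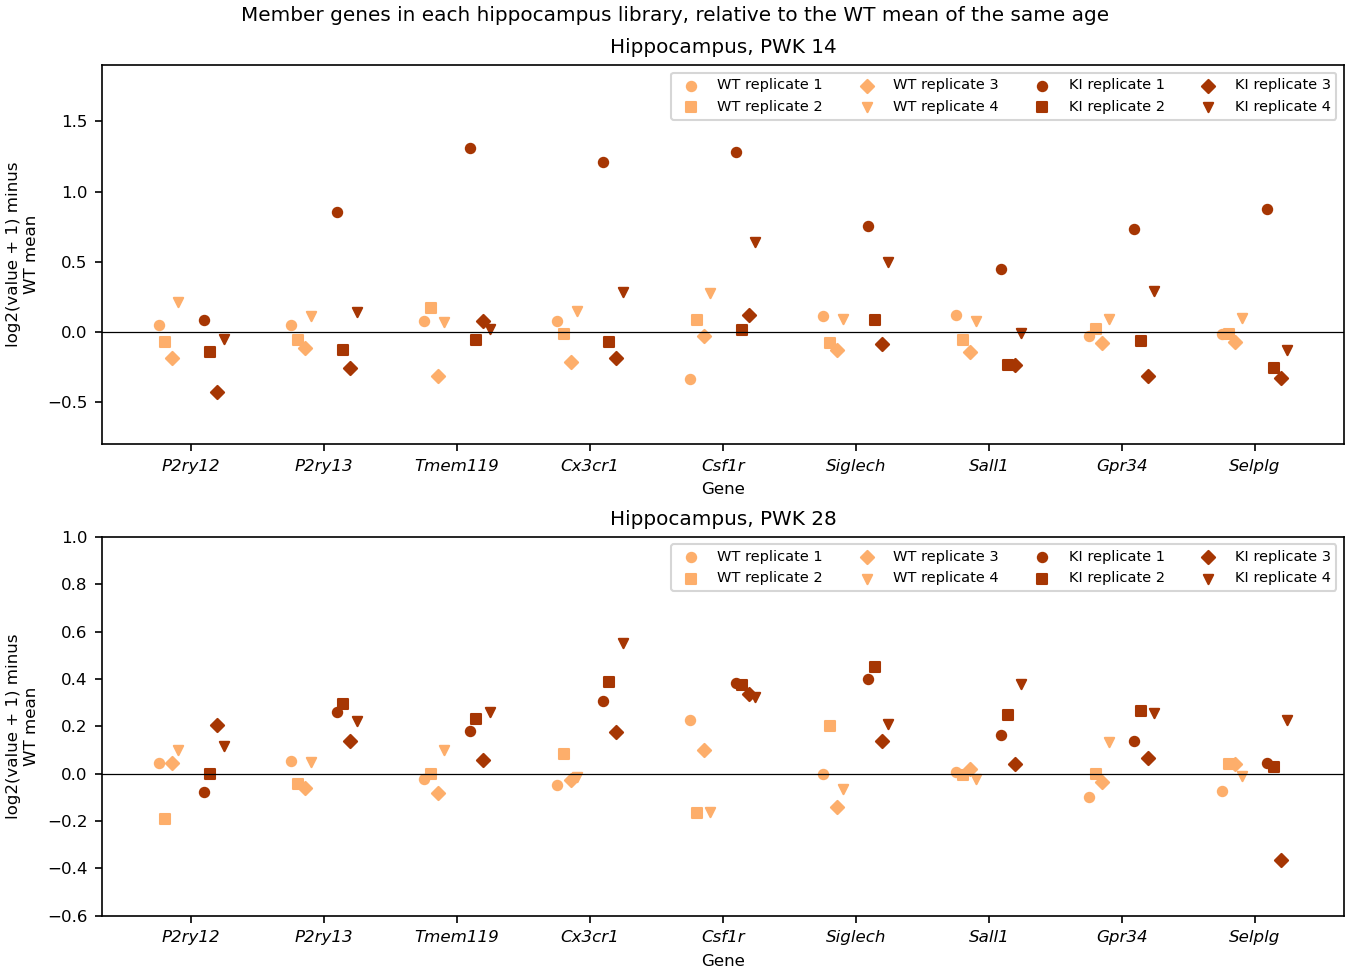
Level of each member gene (x axis) in each hippocampus library, as log2(value + 1) minus the mean of the 4 WT libraries of the same age (y axis), at PWK 14 (top) and PWK 28 (bottom); symbols number the replicates and colours give the genotype. At PWK 14 KI replicate 1 is above the rest for all genes but *P2ry12*, and at PWK 28 the 4 KI libraries lie above the 4 WT libraries for *Cx3cr1*, *Csf1r*, *P2ry13* and *Sall1*, of which the first pair was called. The share of all genes with such separate groups was not computed.

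The difference between regions in the KI effect was tested directly. At PWK 28 the effect on *Cx3cr1* was higher in hippocampus than in cortex by 0.40 (SE 0.10, 95% interval 0.20 to 0.61, limma adjusted p = 0.025), and that on *Sall1* by 0.70 (SE 0.19, 95% interval 0.29 to 1.11, limma adjusted p = 0.048). Among all genes 4.57% were called in this test and 2.39% were called higher. In KI mice at this age, cortex and hippocampus libraries of the same number deviated together (correlations of 0.239 to 0.443), while those of WT mice did not (-0.0732 to 0.0473). With the replicate block both calls were kept, for *Cx3cr1* with an SE of 0.10 (adjusted p = 0.041) and for *Sall1* with an SE of 0.17 (adjusted p = 0.034). *Cx3cr1* had a KI effect of -0.05 in cortex, and *Sall1* had -0.49 in cortex and 0.21 in hippocampus. The *Cx3cr1* call was lost without WT cortex replicate 1 or WT hippocampus replicate 1 or 4 (adjusted p from 0.051 to 0.057), and in the fit of all 64 libraries (0.194). The *Sall1* call was lost in 12 of the 16 fits without 1 library (adjusted p from 0.070 to 0.096), the exceptions being those without WT cortex replicate 1 or 2, KI cortex replicate 2 or KI hippocampus replicate 3. It was also lost without the filter on low values (0.055) and with total-sum scaling (0.051). *Csf1r* had a value of 0.52 (adjusted p = 0.086), called without KI cortex replicate 4 (0.65, adjusted p = 0.0085). At PWK 1, 7 and 14 no member was called in this test (0%, 0.00543% and 2.85% of all genes), and without KI hippocampus PWK 14 replicate 1 the PWK 14 count was again 0. In the fit of all 64 libraries, *Cx3cr1* passed at PWK 14 (0.61, adjusted p = 0.023). In the fit of the PWK 14 libraries alone, its value was 0.31 without KI hippocampus PWK 14 replicate 1 (limma adjusted p = 0.318). The KI effect also did not pass for any member between PWK 7 and 14 (3.18% of all genes called in cortex, 10.3% in hippocampus) or between PWK 14 and 28 (0% in both regions). For these last tests, in which limma called 0 genes, 2770 genes in cortex and 2274 in hippocampus had an unadjusted p below 0.05.

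The other microglial lists are described by counts and medians, beside 2 of 9 members and a member median of 0.21 in hippocampus at PWK 28. Among all genes tested in this comparison, 15.8% were called and 8.92% were called higher. Of 15 other homeostatic genes 7 were higher in KI and none was lower, with a median of 0.33 on the log2 scale. They included *Trem2*, a lipid-sensing receptor (581 ± 190 in KI and 255 ± 28.2 in WT, SD, n = 4, log2 difference 1.11). Its place on this list is a choice, since its adaptor gene *Tyrobp* was counted with the activated genes. The others named were *Rgs10* (0.52), *Cd33* (0.51), *Olfml3* (0.32) and *Slco2b1* (0.28), beside *Vsir*, which had the largest p of the 7. Of the 7 transcription factors 4 were higher, among them *Runx1* (1.22), *Irf8* (0.68) and *Bhlhe41* (0.51). Of 13 activated microglia genes 9 were higher and 1 was lower, with a median of 0.65. *Gpnmb* rose from 133 ± 24.6 to 604 ± 126 (2.16), *Cd9* from 1239 ± 89 to 2007 ± 190.1 (0.69), and *Cd68*, a lysosomal glycoprotein, from 181 ± 24.4 to 308 ± 64.7 (0.75). *Tyrobp*, the adaptor of TREM2, rose by 0.65 and *Cst7*, a cystatin, by 3.65 from a low level (3.39 ± 2.11 in WT). The gene that fell was *Lpl*, the lipoprotein lipase, by 0.82 on the log2 scale, from 1245 ± 95.5 to 716 ± 153.

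**Figure D5:**
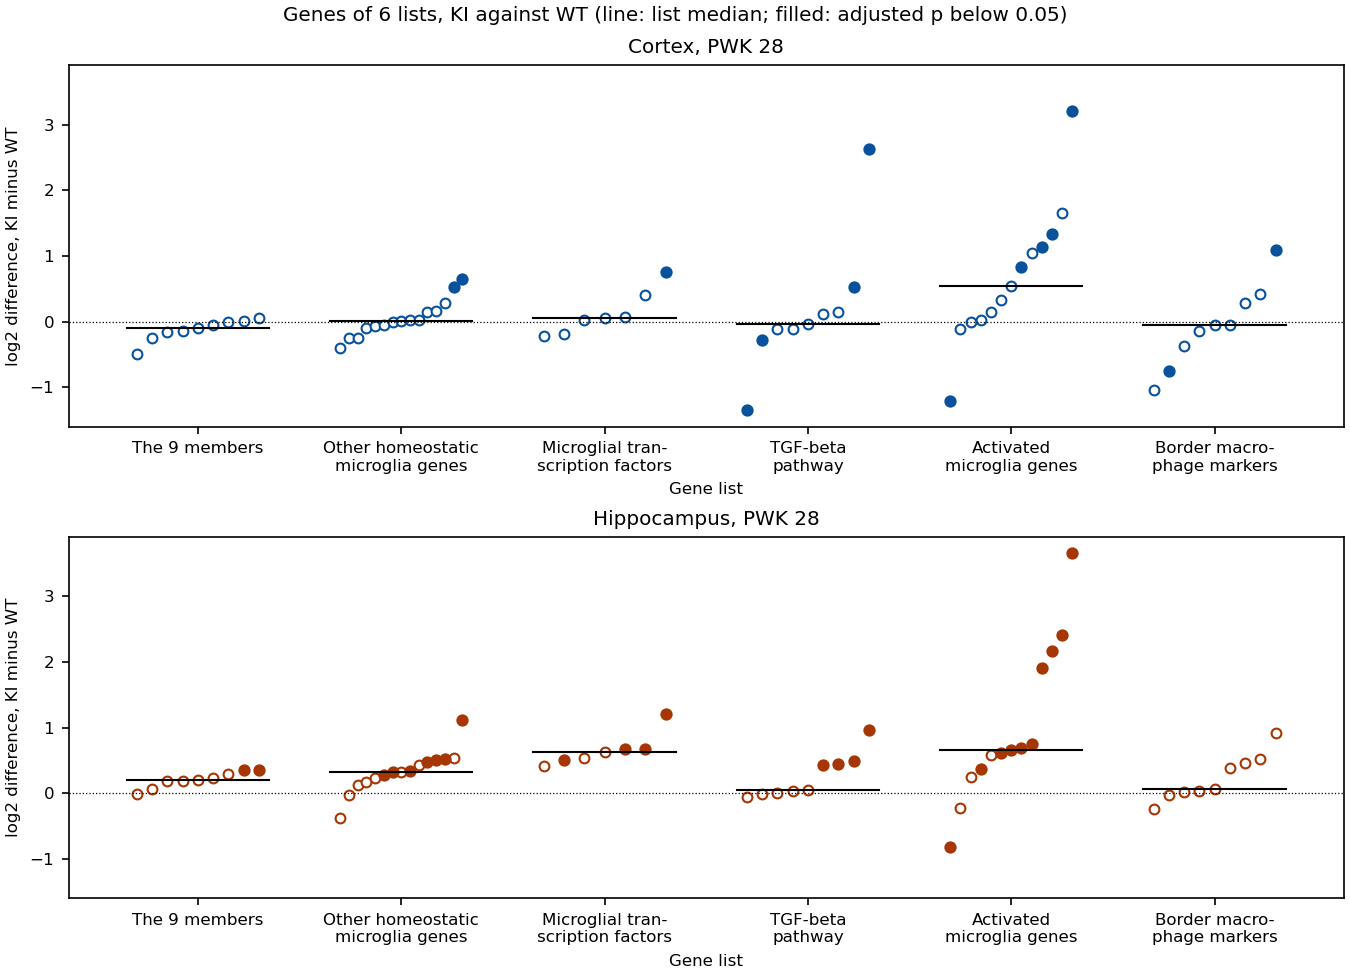
Log2 difference of KI minus WT (y axis) at PWK 28 for the genes of 6 lists (x axis), in cortex (top) and hippocampus (bottom); each point is a gene, filled where the adjusted p was below 0.05, and black lines are list medians. In hippocampus 2 of 9 members, 7 of 15 other homeostatic genes, 4 of 7 transcription factors and 9 of 13 activated genes are filled above 0. Of all genes tested there, 8.92% were called higher.

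At PWK 14 in hippocampus 1 of 15 other homeostatic genes was higher (*Rgs10*, 0.61), with a list median of 0.61. Among all genes tested there, 1407 of 18405 were called higher. Without KI replicate 1, 3 homeostatic genes were higher (*Bin2*, *Olfml3* and *Rgs10*) and the list median was 0.27, beside 1653 of 18405 genes called higher. The transcription factors *Runx1* and *Bhlhe41* were higher with and without that library. Of the activated genes 3 were higher with it (*Gpnmb*, *Cd68* and *Cd9*) and 4 without it (these and *Cd63*), and *Lpl* was lower in both cases. In cortex at PWK 14, 1 homeostatic gene (*Golm1*, 0.58) and 2 activated genes (*Cd68*, 0.65, and *Gpnmb*, 1.45) were higher. At PWK 28, *Golm1* (0.53) and *Rgs10* (0.64) were higher, and among activated genes *Lgals3* (3.20), *Gpnmb* (1.34), *Aif1* (1.14) and *Spp1* (0.84) were higher and *Lpl* (-1.20) was lower. Among all genes tested in cortex, 455 of 18367 were called higher at PWK 14 and 2236 of 18387 at PWK 28. The *Golm1* and *Rgs10* calls at PWK 28 are therefore not read as a result about their list. Neither age nor region gave a lower call for any other homeostatic gene or transcription factor.

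Some ligands were lower in KI. *Il34* was lower in KI hippocampus at PWK 14 (647 ± 72.5 and 1008 ± 67.8 in WT, log2 difference -0.64, SE 0.09, limma adjusted p = 0.0027) and at PWK 28 (736 ± 70.3 and 1010.3 ± 25.2, -0.46, SE 0.07, limma adjusted p = 0.0020), and in cortex at PWK 28 (-0.33, adjusted p = 0.025). *Cx3cl1* was lower in KI cortex at PWK 14 (18035 ± 1058 and 22443 ± 1069, -0.32, SE 0.06, limma adjusted p = 0.017) and at PWK 28 (-0.38, SE 0.06, limma adjusted p = 0.0026). In hippocampus at PWK 28 *Cx3cl1* had a value of -0.19 (adjusted p = 0.050, just above the threshold). *Csf1* and *Entpd1* were not called in any genotype comparison. In the TGF-beta pathway, *Tgfb1*, *Itgav*, *Itgb8* and *Tgfbr2* were higher in KI hippocampus at PWK 14 and at PWK 28, 4 of 9 genes each time, and *Tgfb1* was at 180 ± 30.6 against 91.2 ± 11.3 in WT at PWK 28. Among all genes tested in hippocampus, 1407 of 18405 were called higher at PWK 14 and 1640 of 18389 at PWK 28. In KI cortex at PWK 28 *Tgfb1* (2.63) and *Tgfbr2* (0.53) were higher, and *Smad3* (-1.35) and *Itgb8* (-0.29) were lower.

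Markers of other cells in the hippocampus at PWK 28 were as follows, beside 15.8% of all genes called and 8.92% called higher. Border macrophage markers had 0 of 9 genes called (lowest adjusted p = 0.093, *Lyve1*), and their sums were 1121 to 2009 in WT and 1481 to 1725 in KI. Of the 4 blood leukocyte markers measured, 0 were called, with sums of 35.2 to 44.4 in WT and 24.3 to 48.4 in KI. Choroid plexus (0 of 5), oligodendrocyte (0 of 5) and endothelial markers (0 of 3) were not called. Of 5 astrocyte markers 3 were higher, *Gfap* from 9341 ± 446 to 37495 ± 5375 (2.00), *Aqp4* (0.62) and *Aldoc* (0.37). Of 6 neuron markers 2 were higher and 1 was lower, of 3 hippocampus markers 1 was higher, and of 3 neocortex markers 1 was lower. The part of these shifts in the *Cx3cr1* and *Csf1r* values was not tested.

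Deviations of each library from its group mean were correlated between members over 64 libraries, which share their RNA, depth and size factor, so these values are descriptive. Pearson's r between pairs of members had a median of 0.61 (range 0.17 to 0.80 over 36 pairs), and 0.47 without the 4 KI hippocampus PWK 14 libraries. *Cx3cr1* followed the mean of the other 8 most closely (r = 0.89), and *Sall1* least (r = 0.44, and 0.19 without those 4 libraries). Over the 16 group means *Sall1* had an r of -0.18 with the others, and the remaining members were between 0.83 and 0.97. When the mean of the members was compared with all 14071 genes of mean 50 or more, those nearest over libraries included *Cd180* (r = 0.86), *Itgam*, *Nckap1l*, *S100a13*, *C1qc*, *Mpeg1*, *Gpr37l1*, *Prdx6* and *Fcrls* (0.81). Without the 4 KI hippocampus PWK 14 libraries the nearest was *Ntsr2* (r = 0.79), and *Itgam* was 10th (0.69). Of the genes named over all 64 libraries, *Itgam* alone stayed among the 10 nearest, so that list depended largely on this group. Over the 16 group means the nearest were *Acsbg1* (0.98), *Vsir*, *mt-Co1*, *Il15ra*, *Cyp4f14*, *Dbndd2*, *Rnf114*, *Itgam*, *Gm38910* and *Polr3g* (0.97).

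In the order of the 16 group means, neighbouring groups nearly always overlapped. Ordering puts the closest means side by side, which favours overlap, and the share over all genes was not computed. The counts therefore say nothing about groups further apart in the order. For *P2ry12*, *Cx3cr1*, *Sall1* and *Gpr34* all 15 neighbouring pairs overlapped in range, and for the other members 13 or 14 of 15 did. The highest group mean over the lowest was 4.97 for *Selplg*, 3.24 for *Tmem119*, 2.56 for *Csf1r*, 2.55 for *Siglech*, 2.2 for *P2ry13*, 2.03 for *Gpr34*, 1.76 for *P2ry12*, 1.58 for *Cx3cr1* and 1.44 for *Sall1*. The lowest group was a PWK 1 group for all members but *Sall1*, whose lowest and highest means were the KI and the WT cortex at PWK 28. The highest was WT cortex at PWK 7 for *P2ry12*, *P2ry13*, *Siglech* and *Gpr34*, KI hippocampus at PWK 28 for *Csf1r*, and KI hippocampus at PWK 14, the group with the library that stood apart, for *Tmem119*, *Cx3cr1* and *Selplg*.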

How the data were processed

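Gene expression in mouse frontal cortex and hippocampus was measured by paired-end sequencing of stranded libraries. The authors estimated transcript levels with Salmon on GRCm38, summed them per gene, and normalized them with DESeq2. The submitters' processing notes give Salmon 0.11.2 and DESeq2 1.19.11, and the study's methods name other versions of both. The deposited signal is therefore a normalized count per gene (18432 genes, of which 18420 matched GENCODE vM21). Whole reads could not be recovered and sequencing depth is unknown, so no counting interval is given.

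Normalized counts were tested as log2(value + 1) with limma (3.58.1, R 4.3.3, trend) on the libraries compared, for genes of mean 1 or more, with Benjamini-Hochberg adjustment over all genes tested and a threshold of 0.05. Fold changes are on that log2 scale. Where the groups of a gene are said not to overlap, the share of all genes with such separate groups was not computed. The 26 comparisons covered genotype, WT age, WT region and their interactions. The genes named were all members, at most 6 genes of a list (those of smallest p), and the 10 genes most like the members, except genes not reported here. Members and lists were chosen with earlier results of these data known. No replicate block was used in the values reported, and a fit with it was an alternative. Cortex and hippocampus libraries of the same number all correlated above 0.1 in their deviations from group means in WT at PWK 1 (0.102 to 0.256) and in KI at PWK 28 (0.239 to 0.443), and not in the other groups. The p-values rest on the spread between libraries within groups of 4 mice, with each gene's variance moderated by limma using all genes. In the comparisons between regions, cortex and hippocampus libraries were treated as independent, although both tissues came from each mouse. The fits were tested on simulated data with normal noise of equal spread in both groups. Changes as small as the members' genotype differences, outlying libraries and interactions were not simulated.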

Additional observations from a re-analysis of the deposited data

Results flagged for a closer look

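Each member was checked in each group of 4 libraries, which made 144 sets. In 6 sets, 1 library stood apart by a gap to the nearest other library that was large for the group's range. Chance flags about 1 set in 20, a share that 6 of 144 does not exceed. In KI hippocampus at PWK 14, replicate 1 was high for *Tmem119* (1437, others 557 to 611) and *Selplg* (1512, others 655 to 752). In WT hippocampus at PWK 7, replicate 2 was high for *Tmem119* (620.1, others 540 to 548). In WT hippocampus at PWK 1, replicate 4 was low for *Csf1r* (1923, others 2259 to 2262). In WT cortex at PWK 1, replicate 1 was high for *Sall1* (935, others 723 to 741), and in KI cortex at PWK 7, replicate 2 was high for *Gpr34* (489, others 396 to 407).

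The KI effect at PWK 28 differed between hippocampus and cortex for *Cx3cr1* (0.40 on the log2 scale) and *Sall1* (0.70), each by a test of the difference itself (limma). Their causes were not tested.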

How the results depend on the processing

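A pseudocount of 10 moved no count of called members by more than 1.5 times. Without the filter on low values, 1 member in place of 2 was called in the test of the KI effect between regions at PWK 28. With total-sum scaling, 1 was called for KI in cortex at PWK 28 (0 as reported), 2 for WT cortex from PWK 14 to 28 (1), 0 for WT region at PWK 1 (1) and 1 for the KI effect between regions at PWK 28 (2). For KI, a fit of all 64 libraries called 1 in PWK 28 cortex (0), 2 in PWK 14 hippocampus (0) and 0 in PWK 28 hippocampus (2). It called 0 for WT cortex from PWK 7 to 14 (1), 0 from PWK 14 to 28 in each region (1), 0 and 4 for WT region at PWK 1 and 7 (1 and 8), and 1 each for the KI effect between regions at PWK 14 and 28 (0 and 2). With the replicate block, 1 was called for KI in cortex at PWK 28 (0), 0 for WT cortex and 0 for WT hippocampus from PWK 14 to 28 (1 each), and 2 and 1 for WT region at PWK 1 and 14 (1 and 0). Same-numbered cortex and hippocampus libraries correlated above 0.1 in every pair only in WT at PWK 1 and in KI at PWK 28, and the labels do not say whether equal numbers mark the same mouse. The block moved no other count by more than 1.5 times.

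Leaving out 1 library at a time gave 0 to 1 calls for KI in cortex at PWK 14 and at PWK 28, 2 to 4 in PWK 28 hippocampus, 0 to 2 for WT cortex from PWK 7 to 14, 0 to 1 from PWK 14 to 28 in each region, 0 to 2, 5 to 8, 0 to 1 and 0 to 1 for WT region at PWK 1, 7, 14 and 28, and 0 to 2 for the KI effect between regions at PWK 28.

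Of 234 member values, 33 were called as reported and 16 in an alternative only. None of these changed sign. Of the other 185, 18 changed sign under a setting other than leaving out a library and 77 under any setting, all with an absolute log2 difference of at most 0.30. The fits without KI hippocampus PWK 14 replicate 1 were added after the data were seen. With 4 libraries a group and no known depth, differences smaller than the intervals given could not be detected.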
